A study of Mus musculus with 2 samples.

Results

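Il1b, Il1a, Il1rn, Tnf, Nlrp3, Ptgs2, Ccl3 and Ccl4 are 8 genes of the acute inflammatory programme of myeloid cells. They were picked by gene symbol, and all 8 were found among the 32245 gene symbols of the series. They were measured by single-cell RNA sequencing in adrenal glands of female C57BL/6J mice of the genotype SF1-Cre+;Znrf3Fx/Fx, at 9 weeks of age (1 library from 3 adrenals) and at 6 weeks (1 library from 2 adrenals). Both ages carry the same deletion: SF1-Cre is active in steroidogenic cells such as those of the adrenal cortex, and removes the floxed Znrf3, which encodes a ubiquitin ligase that limits Wnt signalling. Myeloid cells are not a target of SF1-Cre. The design names 6 weeks as an age of hyperplasia and 9 weeks as an age of regression of the gland, and asks how the immune cells differ between them. Libraries from mice without Cre or from males were not analysed here, so no value below says how the genes behave in a normal gland, nor checks the loss of Znrf3.

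Il1b and Il1a encode the interleukin-1 cytokines, which signal through the receptor Il1r1, and Il1rn encodes the antagonist that occupies this receptor without activating it. Interleukin-1 beta is made as an inactive precursor, and Nlrp3 encodes the sensor of the inflammasome that activates caspase-1 to cut it. Tnf encodes tumour necrosis factor, Ptgs2 encodes the inducible cyclooxygenase that starts prostaglandin synthesis, and Ccl3 and Ccl4 encode chemokines that attract leukocytes. In myeloid cells these genes are induced within a short time by NF-kB and other stress-responsive factors, and enzymatic dissociation of a tissue can induce several of them as well. Neutrophils and monocytes enter tissue from blood, while many macrophages of the adrenal reside there.

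The genes lie on 4 chromosomes of the mouse genome (mm10). Il1b occupies chr2:129364570-129371139 on the minus strand, with Il1a 54.6 kb away at chr2:129299610-129309972, and Il1rn lies elsewhere on the same chromosome at chr2:24336853-24351494. Ccl3 (chr11:83647844-83649355) and Ccl4 (chr11:83662584-83664683) are neighbours separated by 13.2 kb, and Nlrp3 lies at chr11:59541568-59566956. Tnf is at chr17:35199381-35202007 and Ptgs2 at chr1:150100031-150108227. The promoters of 4 members are shown because their levels carry the results: Il1b and Tnf as the leading cytokines, Il1rn as the antagonist of the first, and Ptgs2 as the member with the lowest ratio of 9 over 6 weeks in mature neutrophils. Each line gives the 250 bases before the RefSeq start on GRCm38.p6, 5′ to 3′ on the strand of the gene, with matches to the searched motifs in capitals.
Il1b, chr2:129371140-129371389, minus strand: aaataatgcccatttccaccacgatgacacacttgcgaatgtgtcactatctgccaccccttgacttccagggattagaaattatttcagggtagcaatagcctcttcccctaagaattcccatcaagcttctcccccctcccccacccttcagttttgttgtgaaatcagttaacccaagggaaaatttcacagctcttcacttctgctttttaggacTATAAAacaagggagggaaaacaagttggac
Tnf, chr17:35202008-35202257, minus strand: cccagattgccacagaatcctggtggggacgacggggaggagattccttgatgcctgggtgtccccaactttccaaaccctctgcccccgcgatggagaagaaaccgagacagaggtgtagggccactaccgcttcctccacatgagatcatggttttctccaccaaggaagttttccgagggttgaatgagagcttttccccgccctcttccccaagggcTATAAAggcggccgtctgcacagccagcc
Il1rn, chr2:24336610-24336859, plus strand: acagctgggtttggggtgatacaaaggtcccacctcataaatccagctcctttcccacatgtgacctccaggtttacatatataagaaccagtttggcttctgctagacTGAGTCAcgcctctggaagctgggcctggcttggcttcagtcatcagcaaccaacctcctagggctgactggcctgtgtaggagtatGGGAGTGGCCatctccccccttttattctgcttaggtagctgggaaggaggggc
Ptgs2, chr1:150099781-150100030, plus strand: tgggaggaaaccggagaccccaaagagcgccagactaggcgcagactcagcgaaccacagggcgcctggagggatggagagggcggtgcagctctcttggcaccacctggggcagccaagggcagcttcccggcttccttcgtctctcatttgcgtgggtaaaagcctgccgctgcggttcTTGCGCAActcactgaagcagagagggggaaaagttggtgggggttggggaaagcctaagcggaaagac
The capitals mark a TATA box in Il1b (31 to 26 bases before the start) and Tnf (29 to 24 bases before it). In Il1rn they mark an AP-1 motif (141 to 135 bases before the start) and an NF-kB motif (54 to 45). RefSeq gives 3 windows for Il1rn, of which the one with its start farthest upstream is shown, and the other 2 held no match. In Ptgs2 they mark a C/EBP motif 69 to 62 bases before the start. The letters searched were TATAAA on the strand of the gene, and TGANTCA for AP-1, TTGCNNAA for C/EBP and, for NF-kB, GGGA and CC with 4 bases of any kind between them, on both strands. Of 32851 promoter windows of the same length, 7.59% held the TATA box, 6.75% the AP-1 motif, 9.56% the C/EBP motif and 17.6% the NF-kB motif. Windows were found for 7 of the 8 members, and a match describes letters only.

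After filtering, 9941 cells remained at 9 weeks (median 7029 UMIs, or unique molecular identifiers, which count single RNA molecules) and 8133 cells at 6 weeks (median 11348 UMIs). Cell classes were rebuilt from fixed markers and are called by the class they resemble. The myeloid classes were neutrophil-like cells (795 at 9 weeks, 192 at 6 weeks), monocyte-like cells (273 and 145), macrophage-like cells (2294 and 980) and dendritic-like cells (1081 and 254). The classes were named from these markers, so high markers in a class are no check on its name. Macrophage markers summed to 66972 CPM in macrophage-like cells at 9 weeks and 72570 CPM at 6 weeks, for example. Monocyte-like cells held macrophage markers as well, as given below. The libraries shared 29 barcodes, of which 26 were among the kept cells of both. The 2 libraries differed in low-level Il1b UMIs outside the myeloid classes. Il1b was found in 1.70% of adrenocortical-like cells at 9 weeks and 0.256% at 6 weeks (median depths of these cells 14770.5 and 15520.5 UMIs). In endothelial-like cells it was found in 0.571% and 0.0662% (2618 and 2102.5 UMIs). Shares near these values are read as background, on the assumption that these UMIs come from other cells, which was not tested. With 1 library per age there are no replicates and no test between ages. The difference of each gene is given as the ratio of its level at 9 weeks to that at 6 weeks, and all intervals are 95% intervals of counting error, which do not cover the variation between mice. Levels are given in CPM, the UMIs of a gene per 1000000 UMIs of the summed class. A gene is called higher or lower where the ratio of levels with 5 CPM added is at least 1.5-fold, at 10 CPM in 1 library and 10 UMIs over both.

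Il1b was concentrated in neutrophil-like cells at both ages. They held 63.3% of the 5253 Il1b UMIs at 9 weeks and 67.1% of the 1587 at 6 weeks, macrophage-like cells held 26.0% and 17.9%, and monocyte-like cells at 6 weeks held 11.2%. The neutrophil-like class contained 2 clusters that differ in maturity genes and in their presence by age. The Retnlg cluster, led by Retnlg, S100a9, Cxcr2, Csf3r and Mmp9, genes of mature neutrophils, had 440 cells at 9 weeks and 191 at 6 weeks. The Ngp cluster, led by Ngp, Camp, Lcn2 and Ltf, genes of late granule formation in immature neutrophils, had 355 cells at 9 weeks and 1 cell at 6 weeks. In the Retnlg cluster Il1b reached 3539 CPM at 9 weeks (3417 to 3664) and 3369 CPM at 6 weeks (3169 to 3579), with a ratio of 1.05 (0.98 to 1.13). It was found in 419 of 440 cells (95.2%) at 9 weeks and 180 of 191 (94.2%) at 6 weeks, or in 88.4% and 85.3% of cells after each cell was thinned to 1000 UMIs. In the Ngp cluster at 9 weeks it stood at 32.0 CPM and was found in 8.45% of cells.

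The Il1b ratio of the whole neutrophil-like class was therefore not that of its mature cells. The class as a whole had 634 CPM at 9 weeks against 3347 CPM at 6 weeks, a ratio of 0.190. The Ngp cluster supplied 4342788 of the 5242745 UMIs of the class at 9 weeks. Of the 5 members that could be called in the whole class, none was higher and 4 were lower (Il1b, Il1rn, Nlrp3 and Ptgs2), where 26.1% of all genes were called higher and 33.5% lower. In the Retnlg cluster alone, 11.5% of genes were called higher and 14.9% lower, and of 7 members 2 were lower (Il1rn and Ptgs2) and 2 higher (Ccl3 and Ccl4). The median log2 ratio of the 7 members in that cluster was -0.40, against -0.07 over all genes. Neutrophils are therefore described by the Retnlg cluster from here on.

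**Figure D1:**
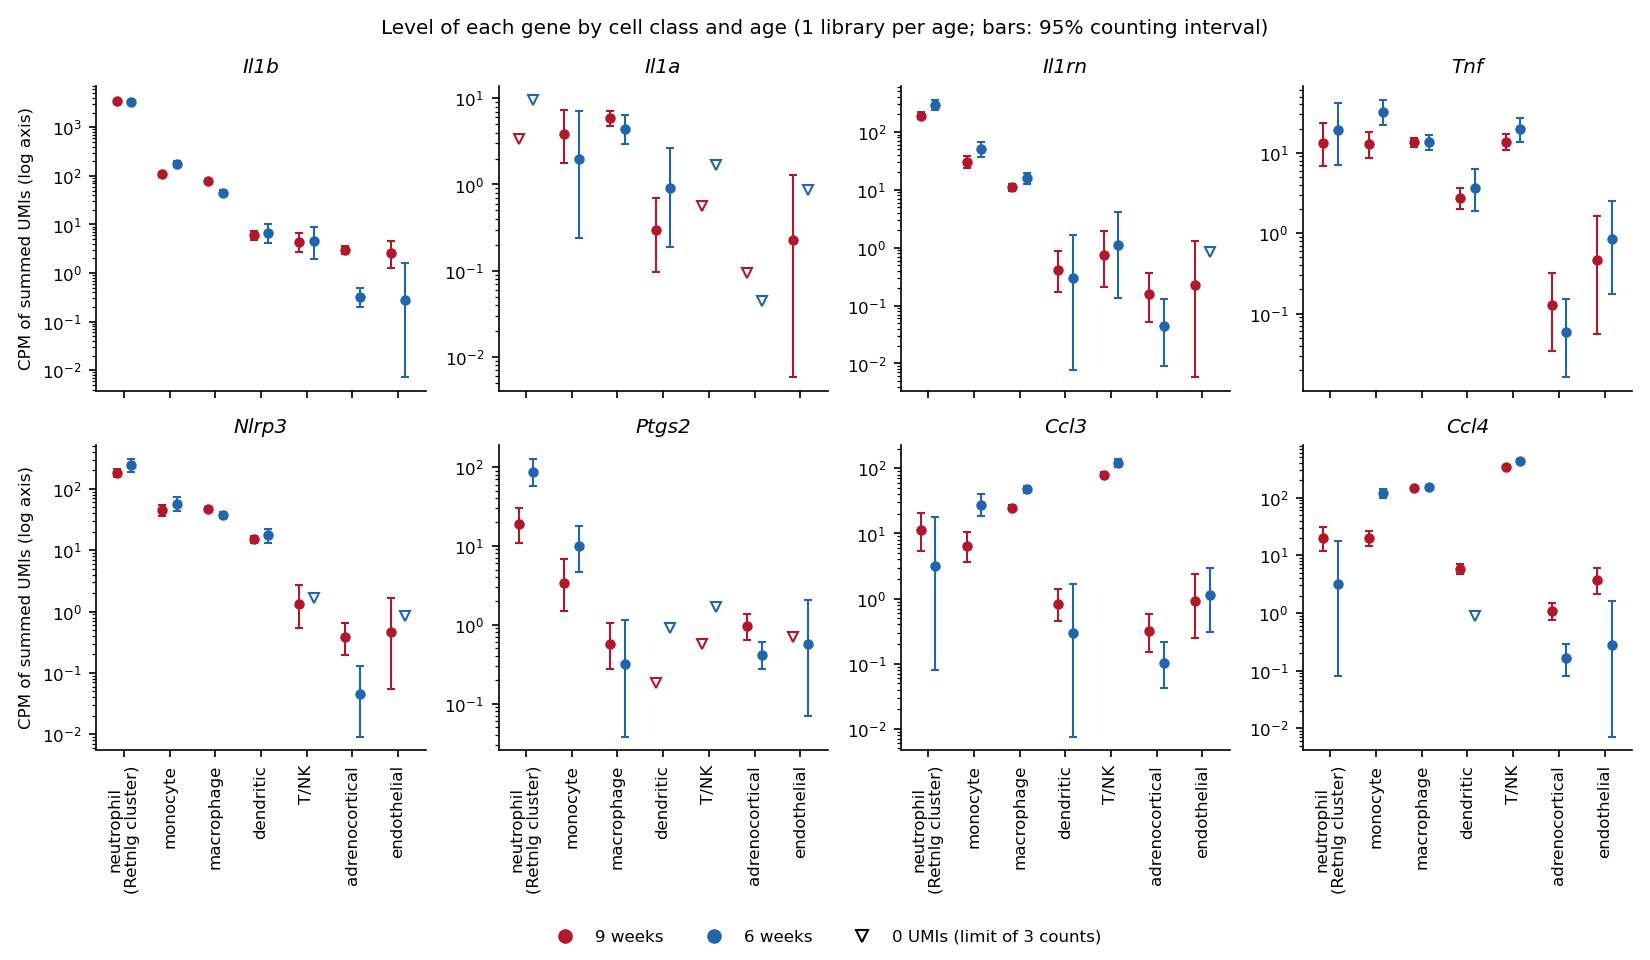
Level of each gene (CPM of summed UMIs, log axis) in 7 cell classes at 9 weeks (red, left) and 6 weeks (blue, right), 1 library per age, with 95% counting intervals; open triangles stand at the limit of 3 counts where no UMI was found. Il1b is highest in neutrophil-like cells of the Retnlg cluster at both ages (3539 and 3369 CPM), while Ccl3 and Ccl4 are highest in T/NK-like cells among the classes shown.

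Within the Retnlg cluster the amount of Il1b per cell varied widely. The median cell held 6 Il1b UMIs at 9 weeks (quartiles 3 and 10) and 4 at 6 weeks (quartiles 2 and 6), at median depths of 1878 and 1534 UMIs per cell. The richest cell held 125 Il1b UMIs of its 4875 UMIs at 9 weeks, and 84 of 2171 at 6 weeks. The richest 5% of cells held 19.2% of the Il1b UMIs of the cluster at 9 weeks and 28.8% at 6 weeks, so most mature neutrophils contributed. In monocyte-like cells the same share was 73.3% and 60.5%, and in macrophage-like cells 70.7% and 75%, so there a minority of cells supplied most of the Il1b.

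**Figure D2:**
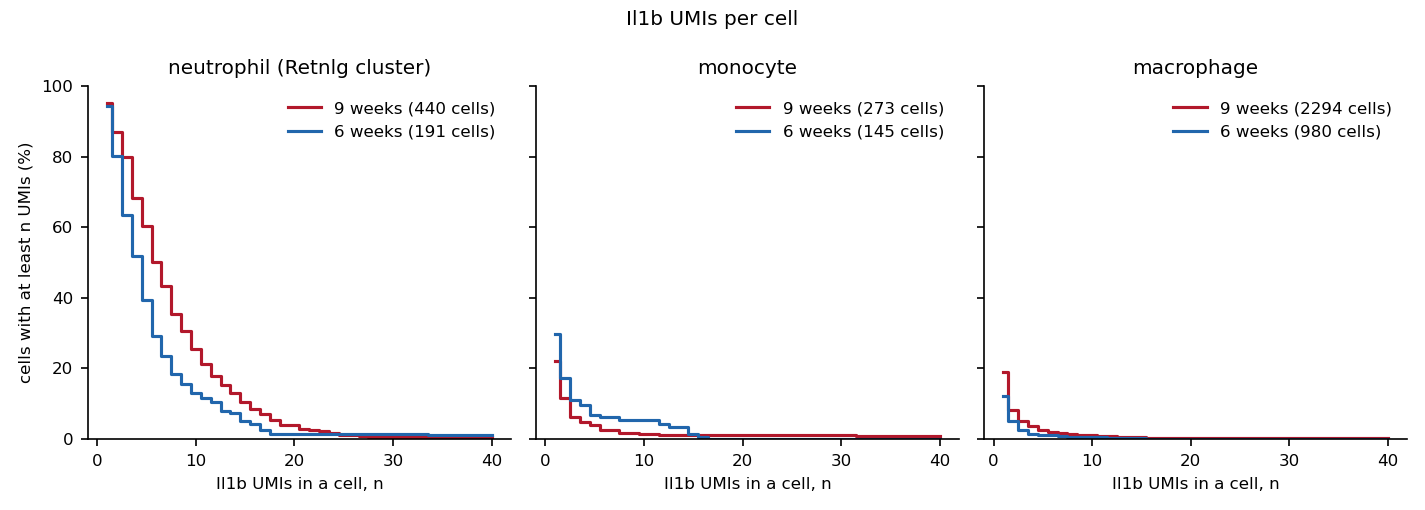
Share of cells (%) that hold at least n Il1b UMIs, by n, in the Retnlg cluster of neutrophil-like cells, in monocyte-like and in macrophage-like cells, at 9 weeks (red) and 6 weeks (blue). Nearly all mature neutrophils hold at least 1 UMI (95.2% and 94.2%), against 22.0% and 29.7% of monocyte-like and 19.0% and 12.1% of macrophage-like cells.

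In monocyte-like cells Il1b reached 107 CPM at 9 weeks (94.3 to 121) and 174 CPM at 6 weeks (149 to 202), with a ratio of 0.616 (0.506 to 0.751). It was found in 22.0% of cells at 9 weeks and 29.7% at 6 weeks. In macrophage-like cells the order was opposite, with 78.5 CPM at 9 weeks (74.4 to 82.8) against 44.6 CPM at 6 weeks (39.6 to 50.2), for a ratio of 1.76 (1.55 to 2.01). Il1b was found in 19.0% of macrophage-like cells at 9 weeks and 12.1% at 6 weeks, and in 5.73% and 3.09% after thinning to 1000 UMIs, all well above the shares in adrenocortical-like cells. Dendritic-like cells had 5.98 CPM at 9 weeks and 6.62 CPM at 6 weeks, beside 3.01 and 0.327 CPM in adrenocortical-like cells. Among them type 2 dendritic-like cells (64 at 9 weeks, 37 at 6 weeks) stood at 39.4 CPM (21 UMIs) at 9 weeks and 23.5 CPM (8 UMIs) at 6 weeks, and mature dendritic-like cells (52 and 29) at 23.7 and 34.9 CPM. The order of the classes was the same at both ages, neutrophil over monocyte over macrophage over dendritic, and no neighbours overlapped in their counting intervals. These intervals do not cover UMIs that are concentrated in few cells. At 9 weeks 1.10% of the 273 monocyte-like cells held at least 31 Il1b UMIs each. Without the richest cell of each class monocyte-like cells stood at 87.4 CPM and macrophage-like cells at 74.0 CPM. Whether their order holds without the other rich cells was not tested. Outside the myeloid cells, B-like cells had 27.0 CPM at 9 weeks, from 30 UMIs in 2 cells, and 0 UMIs at 6 weeks. These 2 cells, with 17 and 13 Il1b UMIs, also held 69 and 129 UMIs of neutrophil markers. Whether they are doublets was not tested.

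The age difference of Il1b in macrophage-like cells came with a different mixture of clusters. The Vcam1 cluster (C1q genes, Vcam1, Cx3cr1) had 1668 cells at 9 weeks and 352 at 6 weeks, and the Mrc1 cluster (Pf4, Mrc1, Stab1, markers of resident macrophages) had 311 and 452. The Mmp12 cluster (Mmp12, Trem2, Gpnmb, genes of lipid-laden macrophages) had 163 and 125 cells, and a cycling cluster had 149 and 38. Within the Vcam1 cluster Il1b stood at 88.9 CPM at 9 weeks and 68.3 CPM at 6 weeks, a ratio of 1.30 (1.10 to 1.55). In the Mrc1 cluster it stood at 36.8 and 19.5 CPM (71 and 47 UMIs), a ratio of 1.89 (1.29 to 2.79), and in the Mmp12 cluster at 84.5 and 68.5 CPM, a ratio of 1.23 (0.93 to 1.65). The cycling cluster had 49.8 CPM (91 UMIs) at 9 weeks and 9.02 CPM (4 UMIs) at 6 weeks. With the clusters weighted alike at both ages the log2 ratio of the class was 0.44, short of the 1.5-fold line, against 0.75 for the sum of all cells. Neutrophil markers in macrophage-like cells summed to 269.9 CPM at 9 weeks and 57.4 CPM at 6 weeks, and 10 of the 14 were higher at 9 weeks. Among macrophage-like cells without a UMI of the neutrophil genes S100a8 or S100a9 the log2 ratio of Il1b was 1.02. These were 865 of 2294 cells at 9 weeks and 954 of 980 at 6 weeks. The setting thus set a selected part of the 9-week cells against nearly all 6-week cells. How the cells kept differ in depth and clusters was not tested.

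**Figure D3:**
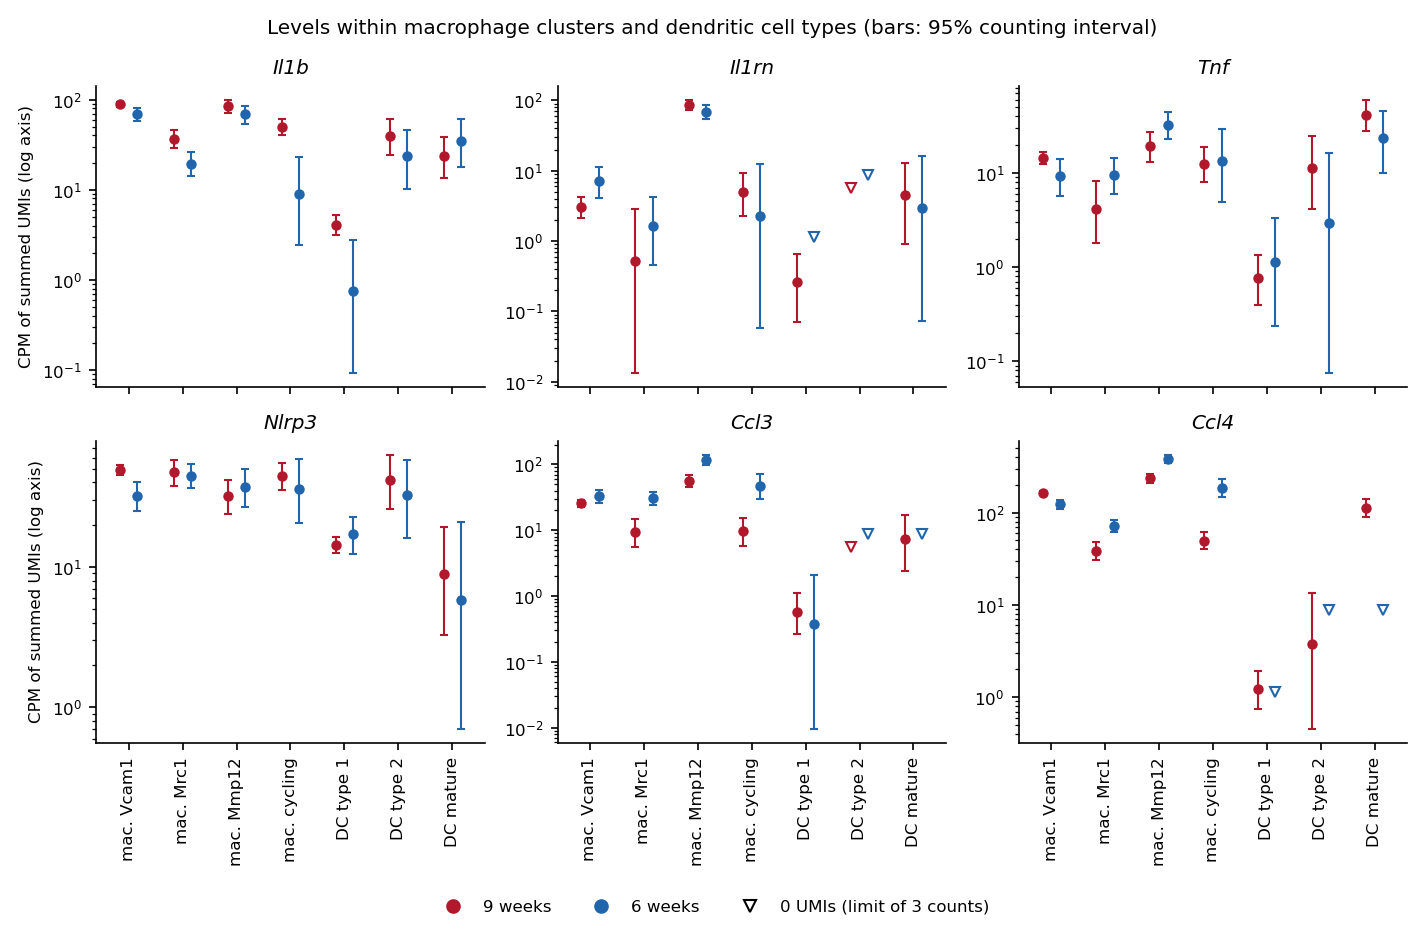
Levels of 6 genes (CPM, log axis) in 4 clusters of macrophage-like cells and 3 types of dendritic-like cells at 9 weeks (red, left) and 6 weeks (blue, right), with 95% counting intervals and open triangles at the limit of 3 counts. Il1rn stands highest in the Mmp12 cluster (86.9 and 69.3 CPM), where 1 cell at 9 weeks holds 43 UMIs. Tnf stands highest at 9 weeks in mature dendritic-like cells (41.5 CPM).

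Il1a, the second interleukin-1 cytokine, was weakly measured. Macrophage-like cells held 87.2% of its 117 UMIs at 9 weeks and 84.8% of its 33 UMIs at 6 weeks, and were also the myeloid class with most cells. Its level in them was 5.86 CPM at 9 weeks and 4.40 CPM at 6 weeks, a ratio of 1.33 (0.87 to 2.10), below the 10 CPM needed for a call. Monocyte-like cells had 3.84 CPM (9 UMIs) at 9 weeks and 1.97 CPM (2 UMIs) at 6 weeks, and their intervals overlapped those of macrophage-like cells at both ages. The Mmp12 cluster stood highest, at 9.59 CPM (16 UMIs) at 9 weeks and 12.3 CPM (14 UMIs) at 6 weeks, without a call. No Il1a UMI was found in the Retnlg cluster, in 0 of 440 cells at 9 weeks and 0 of 191 at 6 weeks, which allows up to 0.682% and 1.57% of cells with a UMI and levels of up to 3.33 and 9.59 CPM. At the depth of these cells this limits detection. At 9 weeks the limit lies below the 5.86 CPM of macrophage-like cells. At 6 weeks it lies above their 4.40 CPM, and a level like theirs could not be told from 0.

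Il1rn, the antagonist, had its highest level in the same neutrophils. In the Retnlg cluster it had 191 CPM at 9 weeks (164 to 222) against 291 CPM at 6 weeks (234 to 357), for a ratio of 0.657 (0.507 to 0.857), while the Ngp cluster stood at 30.4 CPM at 9 weeks. It was found in 28.9% of cells of the Retnlg cluster at 9 weeks and 30.9% at 6 weeks, and in 16.4% and 25% after thinning to 1000 UMIs. Monocyte-like cells had 30.7 CPM at 9 weeks and 50.1 CPM at 6 weeks, a ratio of 0.614 (0.423 to 0.896). Macrophage-like cells had 11 and 15.7 CPM, a ratio of 0.698 (0.545 to 0.898) that was not called. Among macrophages Il1rn was concentrated in the Mmp12 cluster, at 86.9 CPM (145 UMIs) at 9 weeks and 69.3 CPM (79 UMIs) at 6 weeks, against 3.01 and 7.05 CPM in the Vcam1 cluster and at most 4 UMIs in the Mrc1 cluster at either age. A single macrophage-like cell held 43 of the 191 UMIs at 9 weeks. No macrophage cluster other than the Mmp12 cluster held as many, so this cell lies in the Mmp12 cluster. Without the richest cell of each library macrophage-like cells stood at 8.51 CPM at 9 weeks and 14.5 CPM at 6 weeks. The Mmp12 cluster made up 163 of the 2294 macrophage-like cells at 9 weeks and 125 of the 980 at 6 weeks, and its own ratio was 1.25 (0.946 to 1.67). With the clusters weighted alike at both ages the log2 ratio of Il1rn in macrophage-like cells was -0.10, against -0.38 for the sum of all cells. The Mmp12 ratio and the weighted value include the cell with 43 UMIs, and neither was computed without it.

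Nlrp3, the inflammasome sensor, was found in each of the 4 myeloid classes. Its level in the Retnlg cluster was 180 CPM at 9 weeks (153 to 210) and 243 CPM at 6 weeks (191 to 304), for a ratio of 0.741 (0.561 to 0.986), not called. Monocyte-like cells had 44.4 CPM at 9 weeks and 57.0 CPM at 6 weeks (ratio 0.779, 0.560 to 1.09). Macrophage-like cells had 46.5 CPM at 9 weeks and 37.6 CPM at 6 weeks (ratio 1.24, 1.07 to 1.43), and their Vcam1 cluster had 48.9 and 32.2 CPM (ratio 1.52, 1.19 to 1.96, under the line once 5 CPM are added). Dendritic-like cells had 15 CPM at 9 weeks and 17.4 CPM at 6 weeks (ratio 0.861, 0.645 to 1.17), beside 0.380 and 0.0446 CPM in adrenocortical-like cells, and type 2 dendritic-like cells had 41.3 and 32.3 CPM. Nlrp3 was the single member that could be called in dendritic-like cells, where 1.26% of all genes were higher and 2.47% lower, and it was neither. The richest 5% of macrophage-like cells held 33.7% of its UMIs at 9 weeks and 39.3% at 6 weeks, about the share seen in mature neutrophils (32.1% and 38.2%).

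Tnf was low in each myeloid class and was not concentrated in mature neutrophils as Il1b was. The Retnlg cluster had 13.3 CPM (12 UMIs) at 9 weeks and 19.2 CPM (6 UMIs) at 6 weeks, with an interval of the ratio, 0.242 to 2.26, that leaves its direction undetectable at this depth, and the Ngp cluster had 14.5 CPM at 9 weeks. Macrophage-like cells had 13.5 CPM at 9 weeks (11.8 to 15.3) and 13.7 CPM at 6 weeks (11 to 16.9), for a ratio of 0.987 (0.769 to 1.28), and held 48.3% and 47.8% of the Tnf UMIs of their libraries. Their clusters went different ways, with 14.4 and 9.25 CPM in the Vcam1 cluster, 4.14 and 9.54 CPM in the Mrc1 cluster (8 and 23 UMIs), and 19.2 and 32.5 CPM in the Mmp12 cluster (ratio 0.590, 0.356 to 0.974). Monocyte-like cells had 12.8 CPM (30 UMIs) at 9 weeks against 32.4 CPM (33 UMIs) at 6 weeks, a ratio of 0.395 (0.233 to 0.668), and Tnf was found in 6.96% of them at 9 weeks and 15.2% at 6 weeks. Mature dendritic-like cells had 41.5 CPM (28 UMIs) at 9 weeks and 23.3 CPM (8 UMIs) at 6 weeks. The same cells at 9 weeks had 112.7 CPM of Ccl4, from 76 UMIs in 6 cells with 48 in 1 cell, against 0 UMIs at 6 weeks. T-like cells, at 16.6 and 21 CPM, stood within the range of the myeloid classes.

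Ptgs2 was rare, with 67 UMIs in the whole library at 9 weeks and 70 at 6 weeks. Adrenocortical-like cells held 44.8% and 40.0% of them, spread over many cells at under 1 CPM (0.949 and 0.416). Among myeloid cells the highest level was in the Retnlg cluster, at 18.9 CPM (17 UMIs in 11 cells) at 9 weeks against 86.3 CPM (27 UMIs in 5 cells) at 6 weeks, a ratio of 0.219 (0.112 to 0.416). Of the 27 UMIs at 6 weeks 16 lay in 1 cell, the one that also held 84 Il1b UMIs. Without the richest cell of each library the levels were 15.6 CPM at 9 weeks and 35.4 CPM at 6 weeks. The share of cells with a UMI was 2.50% at 9 weeks and 2.62% at 6 weeks. Macrophage-like cells held 10 and 2 UMIs, and dendritic-like cells held none (0 of 1081 and 0 of 254 cells, which allows up to 0.278% and 1.18% of cells with a UMI, a limit of detection and not of expression).

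**Figure D4:**
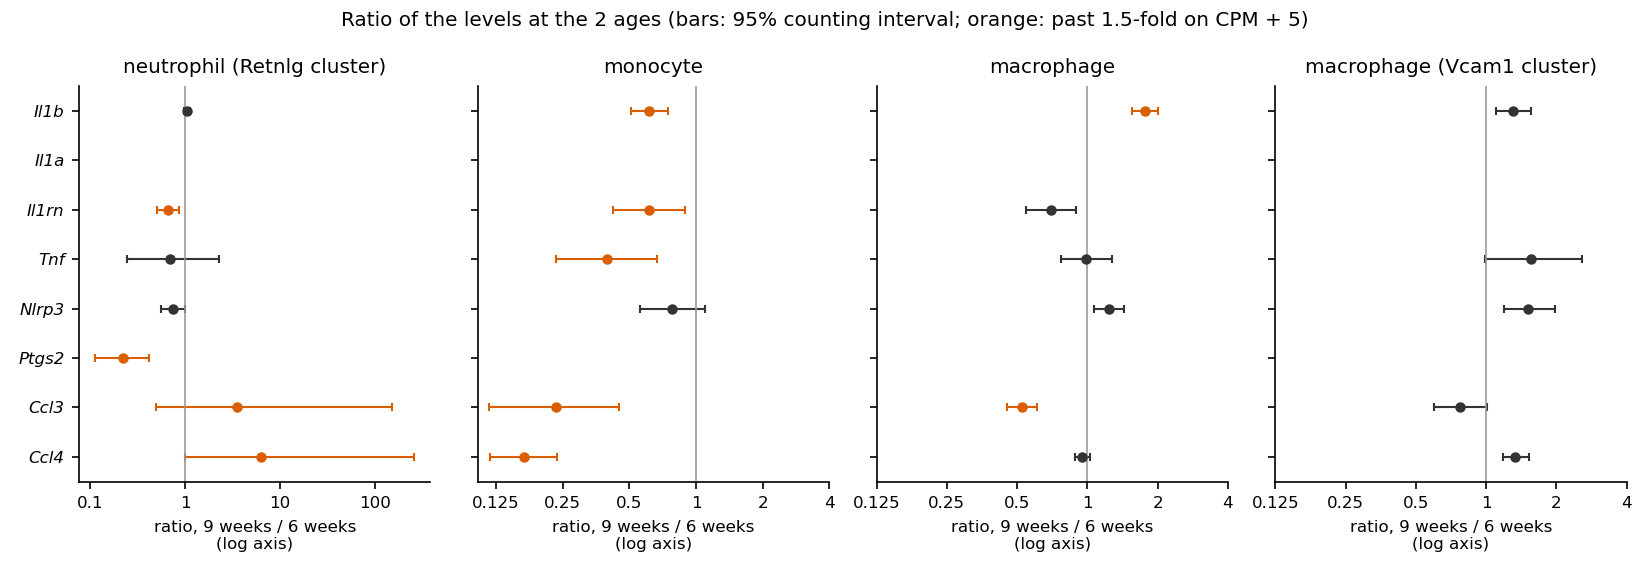
Ratio of each gene's level at 9 weeks to that at 6 weeks (log axis, with 95% counting intervals) in the Retnlg cluster of neutrophil-like cells, in monocyte-like and macrophage-like cells and in the Vcam1 cluster of macrophages. Genes past 1.5-fold on CPM + 5 are orange, and genes under the minimum level are left out. Il1b lies at 1.05 in mature neutrophils, 0.616 in monocyte-like and 1.76 in macrophage-like cells.

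Ccl3 and Ccl4 had their main sources in macrophages and in lymphocytes. Macrophage-like cells held 42.9% of Ccl3 UMIs at 9 weeks and 48.5% at 6 weeks, and T/NK-like cells held 42.0% and 34.4%. For Ccl4 the shares were 54.9% and 50.6% in macrophage-like and 38.9% and 40.2% in T/NK-like cells. In NK-like cells Ccl4 stood at 969 CPM at 9 weeks and 1388 CPM at 6 weeks and Ccl3 at 274.6 and 347 CPM, and in the few mast- or basophil-like cells (46 and 19) Ccl3 stood at 536.5 and 786 CPM. Mature neutrophils held few of them, with 10 Ccl3 and 18 Ccl4 UMIs at 9 weeks and 1 UMI of each at 6 weeks, and 1 cell at 9 weeks held 8 and 14 of these, so their calls in the Retnlg cluster rest on that cell. In macrophage-like cells Ccl4 had 145 CPM at 9 weeks (140 to 151) and 152 CPM at 6 weeks (143 to 162), for a ratio of 0.952 (0.884 to 1.03), while Ccl3 had 25 CPM (22.7 to 27.4) against 47.6 CPM (42.4 to 53.3), a ratio of 0.524 (0.452 to 0.609). Of the 6 members that could be called in macrophage-like cells, Il1b was the 1 called higher and Ccl3 the 1 called lower, where 1.51% of all genes were higher and 2.57% lower. The median log2 ratio of the 6 members was -0.04, against 0.03 over all genes. Among macrophage-like cells without a UMI of S100a8 or S100a9 the log2 ratio of Ccl3 was -0.48, which is not called, against -0.81 in all of them.

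The macrophage clusters showed how the 2 chemokines differed. In the Vcam1 cluster Ccl4 stood at 165 CPM at 9 weeks and 123 CPM at 6 weeks, a ratio of 1.34 (1.18 to 1.52), and Ccl3 at 25.6 and 33.1 CPM, a ratio of 0.774 (0.6 to 1.01). Neither was called, nor was any of the 5 members measured there (2.34% of all genes were higher and 1.52% lower). In the Mrc1 cluster both were lower at 9 weeks, Ccl4 at 38.8 against 71.3 CPM (ratio 0.544) and Ccl3 at 9.32 against 30.7 CPM (ratio 0.304, 18 and 74 UMIs), and Il1b was the 1 higher member, with 4.11% of genes higher and 3.46% lower. In the Mmp12 cluster both chemokines and Tnf were lower, Ccl4 at 235 against 383 CPM (ratio 0.614) and Ccl3 at 55.7 against 116.7 CPM (ratio 0.477), with 6.24% of genes higher and 5.18% lower. The cycling cluster had 49.8 against 185 CPM of Ccl4 and 9.84 against 47.4 CPM of Ccl3. The level of both chemokines was highest in the Mmp12 cluster at each age.

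In monocyte-like cells 5 of the 6 members that could be called were lower at 9 weeks (Il1b, Il1rn, Tnf, Ccl3 and Ccl4) and none was higher, where 3.98% of all genes were lower and 7.53% higher. The median log2 ratio of the 6 members was -0.87, against 0.04 over all genes. The chemokine calls rested on 1 cell. Ccl4 had 20.1 CPM (47 UMIs) at 9 weeks against 120 CPM (122 UMIs) at 6 weeks, and Ccl3 had 6.4 CPM (15 UMIs) against 27.5 CPM (28 UMIs). A single monocyte-like cell at 6 weeks, with 13596 UMIs, held 107 of the 122 Ccl4 UMIs and 25 of the 28 Ccl3 UMIs. It also held 14 UMIs of Il1b, 10 of the 51 of Il1rn and 5 of the 10 of Ptgs2, and 232 UMIs of macrophage markers beside 89 of monocyte markers. Without the richest cell of each library Ccl4 stood at 10.7 CPM at 9 weeks and 14.9 CPM at 6 weeks, and Ccl3 at 3.85 and 2.99 CPM. The cell left out was chosen for each gene on its own. On this basis Il1b and Tnf were still called lower, with log2 ratios of -0.83 and -1.14, and Il1rn, at -0.44, was not. For Il1b and Tnf the 6-week cell left out was another one, with 9498 UMIs. The cell with 13596 UMIs thus stayed in for these 2 genes.

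Markers of neutrophils and of granulocyte precursors differed between the ages in monocyte-like cells as well. The precursor marker Prtn3 was among the leading genes of their cluster. The 6 granulocyte precursor markers summed to 1471 CPM at 9 weeks and 7.9 CPM at 6 weeks, with 5 of them at 0 at 6 weeks, and the 14 neutrophil markers summed to 1275 and 232.9 CPM, with 13 higher at 9 weeks. The markers of NK cells summed to 12.8 CPM at both ages. The class also held macrophage markers, which summed to 9772 CPM at 9 weeks and 10328 CPM at 6 weeks, beside monocyte markers at 12673 and 8781 CPM. Among monocyte-like cells without a UMI of S100a8 or S100a9 (89 of 273 at 9 weeks, 136 of 145 at 6 weeks) the same 5 members were lower. The log2 ratios were -0.64 for Il1b, -1.12 for Il1rn and -1.72 for Tnf. The single 6-week cell described above was not removed in this setting, so its weight on the Ccl3, Ccl4 and Il1rn calls remains. In macrophage-like cells the precursor markers stood at 0.7 CPM at 9 weeks and 0 at 6 weeks. In dendritic-like cells the neutrophil markers summed to 153.0 and 7.2 CPM, with 10 of them at 0 at 6 weeks, and in the Retnlg cluster the macrophage markers summed to 832 and 632.9 CPM. The part of precursor-type cells in the age differences of the members in monocyte-like cells was not tested. Nor was the part of these other markers in the values of dendritic-like cells and mature neutrophils.

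**Figure D5:**
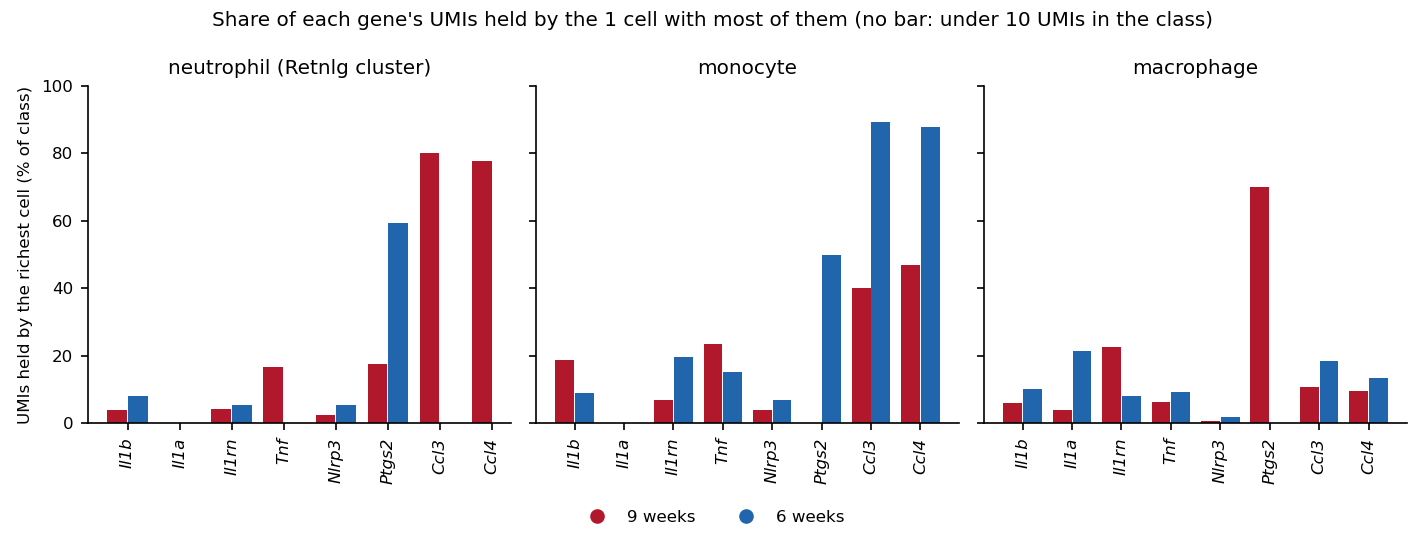
Share (%) of each gene's UMIs in a class held by the 1 cell with most of them, at 9 weeks (red, left) and 6 weeks (blue, right), for the Retnlg cluster of neutrophil-like cells, monocyte-like and macrophage-like cells; genes with under 10 UMIs have no bar. At 6 weeks 1 monocyte-like cell holds 89.3% of the Ccl3 and 87.7% of the Ccl4 UMIs of its class.

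In single cells the members were found together to different degrees. In macrophage-like cells at 9 weeks Ccl4 was found in 57.4% of the 188 cells with Ccl3 and 16.3% of those without, and at 6 weeks in 56.3% of 119 cells and 14.5% of the others. Cells with Tnf held Ccl4 in 43.3% of cases, against 17.8% of cells without Tnf, at 9 weeks, and in 32 of 64 cells against 17.5% at 6 weeks. Il1b was found in 33.5% of the 164 macrophage-like cells with Tnf and 17.9% of those without at 9 weeks, and in 29.7% of 64 and 10.9% at 6 weeks. The cells with a gene were also deeper than those without, with medians of 8366.5 and 7069.5 UMIs for Ccl3 at 9 weeks, and the part of depth in these shares was not tested. One macrophage-like cell at 9 weeks, with 13501 UMIs, held 80 UMIs of Il1b, 15 of Tnf, 47 of Ccl3 and 244 of Ccl4. The richest 5% of macrophage-like cells held 77.4% of the Ccl4 UMIs at 9 weeks and 77.9% at 6 weeks. In monocyte-like cells Nlrp3 was found in 57.9% of the 19 cells with Tnf and 26.0% of those without at 9 weeks, and in 68.2% of 22 and 22.8% at 6 weeks. In mature neutrophils at 9 weeks the antagonist Il1rn was found in 28.9% of the 419 cells with Il1b and in 28.6% of the 21 cells without it.

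Other genes of these pathways were grouped into lists of receptors, signalling genes and effectors, and values below set 9 weeks against 6 weeks. In the Retnlg cluster the inflammasome list had 10 measured genes, of which 4 were higher at 9 weeks and none lower, beside 11.5% and 14.9% of all genes, with a median log2 ratio of 0.46 against -0.07 for all genes. Pycard, the adaptor that joins Nlrp3 to caspase-1, stood at 48.9 CPM (44 UMIs) at 9 weeks and 16 CPM (5 UMIs) at 6 weeks, Gsdmd, which forms the pore that lets interleukin-1 beta out, at 55.6 and 28.8 CPM (50 and 9 UMIs). Il18 and its antagonist Il18bp were higher too, each with 22 UMIs at 9 weeks and 3 at 6 weeks, so these calls rest on few UMIs at 6 weeks. Casp1 had 57.8 and 41.6 CPM without a call. Of 9 genes of interleukin-1 receptors and adaptors 1 was higher, the decoy receptor Il1r2, at 244.5 CPM at 9 weeks against 134.3 CPM at 6 weeks. The signalling genes Irak1 and Tollip were lower. Of 9 genes of TNF receptors and signalling none was called. Of 13 genes that dissociation of tissue is known to induce, Fos was higher (541 against 253 CPM) and 3 were lower, with Egr1 at 2.22 against 83.1 CPM and Nr4a1 at 15.6 against 89.5 CPM. Of 7 chemokine and chemokine receptor genes other than the members 2 were higher, among them Cxcl10 with 42 UMIs at 9 weeks and 0 at 6 weeks, and 2 were lower. Of 7 toll-like receptor genes the co-receptor Cd14 was higher (101 against 44.8 CPM) and Tlr6 lower (37.8 against 60.7 CPM).

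In monocyte-like cells the NF-kB list had 4 of 14 genes lower at 9 weeks and none higher, beside 3.98% and 7.53% of all genes, and a median log2 ratio of -0.42 against 0.04 for all genes. The 4 were Nfkb2 and Rela, subunits of the factor (35.0 against 57.0 CPM and 49.1 against 78.6 CPM), the survival gene Bcl2a1b (281.4 against 510.9 CPM) and Tnip1, an inhibitor of the pathway (32.0 against 52.1 CPM). Of 15 dissociation-induced genes 4 were lower in the same cells and none was higher. The 4 were Jun (68.3 against 116.9 CPM), Nr4a1 (72.2 against 112.0 CPM), Hspa1a (11 and 11 UMIs) and Hspa1b (11 and 14 UMIs). The rest had no call, among them Fos (134.1 against 124.8 CPM) and Egr1 (20.9 against 21.6 CPM). Of 11 genes of TNF receptors and signalling 1 was lower, the adaptor gene Traf1 (23.1 against 51.1 CPM). Of 10 prostaglandin genes the receptor gene Ptger4 was lower (29.5 against 59.9 CPM) and Ptgs1 and Ltc4s were higher. Of 7 other chemokine and chemokine receptor genes Ccl5 was higher (144.3 against 57.0 CPM) and Cxcl2 lower, and of 9 toll-like receptor genes none was called. In macrophage-like cells 1.51% of all genes were higher and 2.57% lower. There neither the 13 NF-kB genes nor the 10 genes of TNF receptors and signalling had a call. The 6 measured genes of interleukin-1 receptors and adaptors had none either. Of 11 inflammasome genes there Il18bp was higher (51.2 against 32.4 CPM), and of 11 prostaglandin genes the leukotriene synthesis genes Alox5 (3.79 against 17.1 CPM) and Ltc4s (26.1 against 104.4 CPM) were lower. Of 13 dissociation-induced genes 2 were higher in macrophage-like cells, with Fos at 35.7 against 16.2 CPM, and 2 lower, with Egr1 at 6.72 against 18.7 CPM. Of 8 other chemokine and chemokine receptor genes Ccl9 (113.7 against 196.5 CPM) and Ccr3 were lower, and of 9 toll-like receptor genes none was called. The part of the different mixture of macrophage clusters in these calls was not tested. In dendritic-like cells 3 of 11 NF-kB genes were lower (Relb, Bcl2a1b and Tnip1) and none higher, beside 2.47% and 1.26% of all genes, with Bcl2a1b at 195.6 against 389.1 CPM. Of 5 other chemokine and chemokine receptor genes in these cells 3 were lower, among them Ccl5 (116.8 against 359.3 CPM), and of 8 inflammasome genes none was called. The mixture of the class differed as well, with mature cells making up 52 of 1081 dendritic-like cells at 9 weeks and 29 of 254 at 6 weeks, and type 1 cells 965 and 188. In type 1 dendritic-like cells alone Ccl5 went the other way, at 40.7 CPM (631 UMIs) at 9 weeks against 9.84 CPM (26 UMIs) at 6 weeks. Relb stood there at 8.13 against 10.2 CPM without a call, Bcl2a1b at 110.6 against 212.4 CPM and Tnip1 at 9.55 against 17.8 CPM. The part of dissociation in these differences was not tested.

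The genes whose levels ran most like those of 3 members were sought among 9728 genes over 30 profiles, of 15 classes and clusters at both ages, by Pearson's r of log2 levels. Some of these profiles share cells and libraries, so r is a description. Most like Il1b were Cd300lf (r = 0.99), Csf3r (0.98) and Sirpb1b (0.97), each highest in the Retnlg cluster at 6 weeks. Csf3r was also used to name that cluster. Most like Tnf were Tnfrsf1b (0.86), Fyb (0.85) and Mapkapk3 (0.84), and most like Ccl3 were Cd200r4 (0.92), Galnt6 (0.88) and Dok2 (0.87), each highest in NK-like cells at 9 weeks. Tnf thus had no partner as close as Il1b had, and 1 of its 3 genes was found again from the 9-week profiles alone, against 3 of 3 for Il1b and Ccl3. From the 6-week profiles alone 2 of 3 were found again for Tnf, 2 of 3 for Il1b and 3 of 3 for Ccl3.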

How the data were processed

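The deposited matrices hold raw counts (UMIs of a gene in a barcode, as integers) from Chromium 3' v3.1 libraries of cells sorted, per the labels, for a live DNA dye and against DAPI after enzymatic digestion in the cold and lysis of red blood cells. Cell Ranger 6.0.1, Seurat with no version and the build mm10 are named in the submitters' processing notes. No annotation release is stated there. Gene positions come from GENCODE M21 on mm10. The matrices held 10812 barcodes and 99728879 UMIs at 9 weeks and 8880 barcodes and 97001752 UMIs at 6 weeks, and summing rows of 1 symbol turned 32285 rows into 32245 symbols.

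A minimum of 500 genes removed 221 barcodes at 9 weeks and 161 at 6 weeks, a maximum of 25% mitochondrial UMIs removed 64 and 111, and doublets called by Scrublet were then removed (586 cells, 5.57%, and 475 cells, 5.52%, with 8.42% and 6.89% expected at 0.8% per 1000 cells). Both libraries were clustered together without integration on 2000 variable genes that left out the 8 members (30 components, 20 neighbours, Leiden resolution 1), which gave 49 clusters. Clusters were named from fixed markers of 22 classes, with at least 3 markers in 10% of cells and 2 times above the median cluster. The thresholds of this naming were set after the data had been seen, so cell names here need not match those of the study.

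UMIs were added up over the cells of a class in each library and expressed as CPM. Levels carry exact Poisson intervals, shares Clopper-Pearson intervals and ratios exact conditional binomial intervals, all at 95% and for counting error only. A count of 0 was given the limit of 3 counts. With 1 library per age no p-value was computed. The members and lists were chosen with earlier results of these data known, and genes outside the members were named from lists or as the 3 genes with the highest correlation, at 20 CPM or more in 1 profile. Sequences come from RefSeq (GRCm38.p6). The interval and ratio steps were tested on simulated data. In all 12 alternatives were planned and 5 were added after seeing the data. Versions were Python 3.11.15, numpy 2.4.6, scipy 1.17.1, scanpy 1.11.5, leidenalg 0.10.2, igraph 0.11.9, scikit-learn 1.9.0 and, for the scaling alternative, edgeR 4.0.16 in R 4.3.3.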

Additional observations from a re-analysis of the deposited data

How the results depend on the processing

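No paired analysis was possible because there was 1 library per age. The number of members called in neutrophil-like cells depended on whether the Ngp cluster was included. With the Retnlg cluster alone, 2 members were higher and 2 lower, against 0 and 4 in the whole class. The log2 ratio of Il1b then reversed to 0.071, against -2.39. Weighting clusters alike left out the Ngp cluster, which had 1 cell at 6 weeks, so for neutrophil-like cells it was the same calculation and not a second check. The count of higher members there was 1 with the mean over cells, with thinning to 1000 UMIs and without doublet removal. In monocyte-like cells the count of lower members, 5, became 2 with the mean over cells and 3 with thinning. It became 2 without each gene's own richest cell, where the log2 ratio of Ccl3 reversed to 0.15, against -1.51. In macrophage-like cells the count of higher members, 1, became 0 with clusters weighted alike, and the count of lower members, 1, became 2 with the mean over cells and 0 among cells without a UMI of S100a8 or S100a9. In dendritic-like cells thinning gave 1 higher member, against 0, at levels near that of 1 UMI. The cause of these changes was not tested beyond what each setting leaves out. Of the other counts of members, 88 were within 1.5 times of those given. The log2 ratio of Il1b in macrophage-like cells ran between 0.44 and 1.03 over 13 alternatives, and that of Tnf in monocyte-like cells between -1.73 and -0.88. Trimmed mean scaling moved the median log2 ratio of all genes in the neutrophil-like class to 0.21, against -0.17, and by under 0.05 elsewhere. The minimum of 1000 genes per cell left 14 neutrophil-like cells at 6 weeks and was not run for them. Settings for the Retnlg cluster, type 1 dendritic cells, cells without S100a8 or S100a9 and the richest cell were chosen after seeing the data. Ptgs2, Il1a and Tnf in neutrophils rest on few UMIs.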
